A study of Mus with 7 samples.

Results

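10 surface receptor genes of macrophages were named for description, and 9 of them were found by gene symbol among the 31053 genes of the deposited count files: the integrin chains Itgam and Itgax, the adhesion receptor Adgre1, the scavenger receptors Msr1 and Marco, the lectins Mrc1, Clec10a and Siglecf, and Cd300a. Clec7a was not analysed here. The cells were FLMs, self-renewing macrophages grown from the fetal liver of C57BL/6J mice of wild-type genotype in 30 ng/mL GM-CSF, profiled by 10x single cell RNA sequencing. Con cells were taken in 10% FBS, before any treatment. The other 6 libraries came from cells held for 24 h in 0.25% FBS, with GM-CSF, either with docosahexaenoic acid at 25 µM (DHA) complexed to BSA at 8.3 µM or with the same BSA alone as the vehicle (Veh). This medium was then replaced by one with 20 ng/mL LPS for 1 h (Veh.LPS.1, DHA.LPS.1) or 4 h (Veh.LPS.4, DHA.LPS.4), or the cells were collected at once (Veh.LPS.0, DHA.LPS.0).

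There was 1 library per condition, so the comparisons below are between libraries, none has a replicate check and none has a p-value. Every 95% interval covers counting error only, and it is too narrow for genes whose UMIs lie in few cells. Of the 31151 deposited barcodes, 11640 passed the limits of more than 20000 UMIs (counted molecules), at least 2000 genes and under 20% mitochondrial UMIs, which left 692 to 3073 cells and 22045775 to 125716982 UMIs per library. The limits kept 62.5% of the barcodes of Con and 40.6% to 55.6% of those of Veh, but 12.1% to 18.5% of those of DHA, where 74.4% to 80.0% of barcodes had a mitochondrial share of 20% or more. Selection of cells and DHA treatment cannot be told apart, and DHA ratios over all deposited barcodes are therefore given too. Median depth ran from 29369 to 56239 UMIs per cell, so shares of cells with a UMI depend on the library. They are given as found. For the 7 receptors with more than 3 UMIs in every library they are also given after thinning each cell to 20000 UMIs. Among kept cells, 16 barcodes occurred in more than 1 library.

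These receptors sample the surroundings of a macrophage in different ways. The beta2 integrins pair an alpha chain, such as Itgam (CD11b) or Itgax (CD11c), with the common beta chain Itgb2 and bind complement fragments and adhesion ligands. Msr1 and Marco take up modified lipoproteins and particles, the lectins Mrc1, Clec10a and Siglecf bind sugars, and Cd300a is an inhibitory receptor for lipids exposed on dying cells. Macrophages of the lung alveoli, which depend on GM-CSF, are known for much Siglecf, Marco and Itgax and little Itgam.

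The alveolar pattern was not found in these cells. Siglecf (ENSMUSG00000039013, GRCm38 chr7:43351341-43359475) had 5 UMIs among the 466508896 of the kept cells, in 3 cells of Con and 2 cells of Veh.LPS.4, and 6 UMIs over all deposited barcodes. Marco (ENSMUSG00000026390, chr1:120474538-120505024) had 0 UMIs in the kept cells and 0 in all deposited barcodes. A count of 0 cells, read as up to 3 cells, allows a share of up to 0.0976% of cells with a UMI in Veh.LPS.1, the library with the most cells, and up to 0.434% in DHA.LPS.4, the one with the fewest. The upper ends of the exact binomial 95% intervals were 0.120% and 0.532%. Itgam, by contrast, had a UMI in 96.0% to 99.3% of the cells of every library, and in 88.2% to 94.0% after thinning.

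The wider alveolar macrophage list was present in part. Of its 20 genes, 7 were seen in 25% or more of any library's cells, and these were the lipid handling genes Fabp4, Fabp5 and Lpl, the surface gene Cd9 and the transcription factors Bhlhe40, Bhlhe41 and Cebpb. Chil3, Ear1, Ear2, Krt79, Krt19 and Trim29 had no UMI in any library, and Pparg, the nuclear receptor that defines alveolar macrophages, had at most 0.0106 CPM, where CPM are the UMIs of a gene per 1000000 UMIs of the kept cells of its library. The summed level of the list ran from 1702 CPM in Con to 3236 CPM in Veh.LPS.4, of which Lpl alone held 781 to 1921 CPM, the least in DHA.LPS.4. Fabp4, a fatty acid carrier, had levels of 0.739, 5.94 and 59.2 CPM over the Veh libraries of 0, 1 and 4 h, and of 0.257, 2.26 and 33.7 CPM over those of DHA. The name surface receptors is used here in place of alveolar-like.

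Of 10 pan-macrophage genes, 9 were seen in 25% or more of cells, and the list summed to 5670 to 6891 CPM. Of 12 Kupffer cell genes, 5 had no UMI (Timd4, Vsig4, C6, Cd163 and Lyve1) and Clec4f had at most 0.00795 CPM, and the list summed to 15.0 CPM in Veh.LPS.0 and up to 97.0 CPM in Con. Most of the sum in Con was the transcription regulator Id3, with 87.0 CPM there, 1.00, 37.2 and 26.5 CPM over Veh and 0.457, 28.1 and 20.2 CPM over DHA. The iron exporter Slc40a1 held 7.55 CPM in Con, 12.1, 12.1 and 12.3 CPM over Veh and 38.9, 27.8 and 13.7 CPM over DHA. Of 10 peritoneal macrophage and monocyte genes, Gata6, Ly6c2 and Fn1 had no UMI, and the list summed to 48.2 to 106.7 CPM. Its chemokine receptor Cx3cr1 stood at 80.7 CPM for Con, 88.8, 73.8 and 84.4 CPM for Veh, and 41.3, 34.4 and 43.2 CPM for DHA, lower past 1.5-fold with DHA at each hour, and Ccr2 reached 28.8 CPM in Veh.LPS.1. The part of these genes in the results below was not tested. The summed level of 7 eosinophil genes, cells that also carry Siglecf, was 0.0285 to 0.137 CPM. It was 0.0571 to 7.53 CPM for 8 neutrophil genes, mostly S100a8, 0.256 to 0.571 CPM for 7 erythroid genes, 5.75 to 7.92 CPM for 10 hepatocyte and stroma genes, mostly Afp, and 0.883 to 1.98 CPM for 10 dendritic and lymphoid genes. None of the 6 mast cell genes had a UMI. These are sums over whole libraries, and no single cell was assigned to another type. Afp had a UMI in 10.4% to 18.4% of the cells of a library, S100a8 in up to 9.39% and Xcr1 in up to 8.26%. No cells of another type were set apart in which to measure free RNA, so no background share can be set beside the shares given here.

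**Figure D1:**
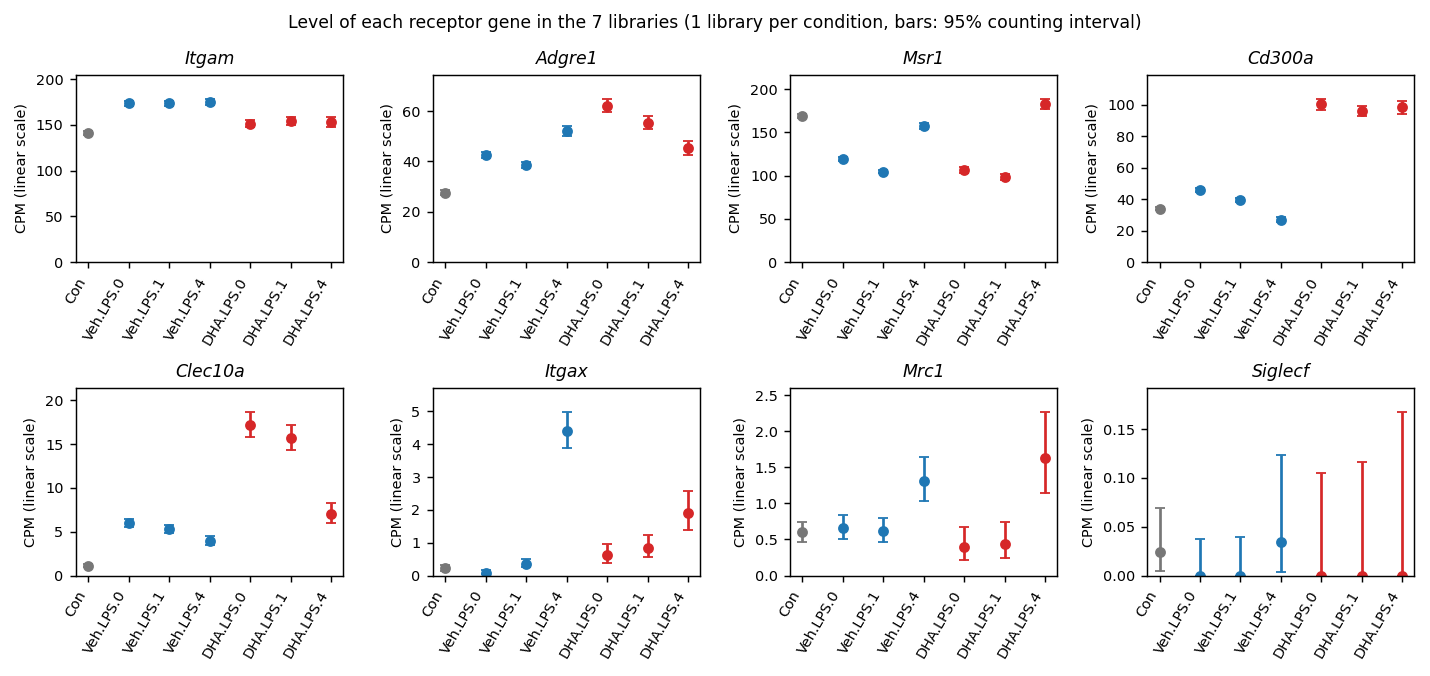
Level of 8 receptor genes in CPM (linear axes from 0) in the 7 libraries, 1 point per library with its exact Poisson 95% interval; grey is Con, blue Veh and red DHA. Cd300a sits at 96.0 to 100.3 CPM in the 3 DHA libraries and at 27.0 to 46.0 CPM elsewhere, Clec10a is highest in DHA.LPS.0 and DHA.LPS.1, Itgax is highest in Veh.LPS.4, and Siglecf holds at most 3 UMIs in a library.

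Itgam (ENSMUSG00000030786, chr7:128062640-128118491) varied least of the 7 receptors that had more than 3 UMIs in every library. Con held 141 CPM, the Veh libraries of 0, 1 and 4 h of LPS held 174, 174 and 175 CPM, and those of DHA, in the same order of hours here and below, 151, 154 and 153 CPM. Within each treatment the 3 hours had overlapping intervals, and every DHA library lay between Con and the Veh libraries. The highest level was 1.24 times the lowest. All of this is by library totals, and the Itgam ratios at 4 h of LPS moved under other scaling, as given below.

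Itgax (ENSMUSG00000030789, chr7:128129526-128150657), whose gene record begins 11034 bases after that of Itgam on the same chromosome, was scarce outside 1 library. Con held 0.215 CPM, the Veh libraries 0.0810, 0.360 and 4.40 CPM, and those of DHA 0.628, 0.849 and 1.91 CPM. The UMIs behind these levels numbered 27 in the Con library, 8, 34 and 258 over the Veh libraries, and 22, 27 and 42 over those with DHA. Veh.LPS.4 stood above all other libraries, with an Itgax UMI in 15.2% of its cells (exact binomial 95% interval 13.0 to 17.6, 151 of 993 cells) against 0.202% to 3.90% elsewhere. After thinning, the share was 6.75% in Veh.LPS.4 and 2.75% in DHA.LPS.4. The beta chain Itgb2, with which both alpha chains pair, reached 32.9 CPM for Con, 59.5, 59.8 and 89.0 CPM for Veh, and 49.8, 50.3 and 74.8 CPM for DHA. Of the other alpha chains on the list, Itgal had at most 4.59 CPM, Itgad at most 0.0285 CPM and Itgav 10.9 to 25.6 CPM. Itga4 was more abundant, at 129.8 CPM for Con, 84.8, 68.7 and 30.5 CPM for Veh, and 75.6, 58.0 and 18.7 CPM for DHA.

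Adgre1 (ENSMUSG00000004730, chr17:57358581-57483529) encodes F4/80, the antigen long used to mark mouse macrophages. Its level stood at 27.6 CPM for Con, 42.5, 38.6 and 52.0 CPM for Veh, and 62.1, 55.3 and 45.4 CPM for DHA. Con was lowest and DHA.LPS.0 highest. In Veh the level was lowest at 1 h and highest at 4 h, and in DHA it was lower at each later hour. The share of cells with an Adgre1 UMI lay between 61.2% and 88.7%, and after thinning between 40.8% and 68.1%. At 4 h it was 80.9% in Veh and 65.2% in DHA as found, but 53.8% and 53.3% after thinning. None of the 6 other adhesion GPCR genes on the list was seen in 25% of any library's cells.

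Among the scavenger receptors, Msr1 (ENSMUSG00000025044, chr8:39543232-39642750) was found in 90.2% to 99.3% of cells, and in 80.3% to 96.0% after thinning. Levels were 169 CPM for Con, 119, 105 and 157 CPM for Veh, and 107, 98.9 and 183 CPM for DHA. Con and both 4 h libraries were high, and the 4 libraries of reduced serum at 0 and 1 h were low, without overlap of the intervals between these sets.

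Mrc1 (ENSMUSG00000026712, chr2:14229414-14332023), the mannose receptor, was found in few cells of every library. Con held 0.597 CPM, the Veh libraries 0.658, 0.613 and 1.31 CPM, and those of DHA 0.400, 0.440 and 1.63 CPM, from 14 to 77 UMIs per library. Both 4 h libraries were above the other 5, whose intervals overlapped from each to the next. An Mrc1 UMI was found in 1.38% to 5.84% of cells, and in 0.629% to 2.60% after thinning.

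The galactose lectin Clec10a (ENSMUSG00000000318, chr11:70166623-70170836) differed most in relative terms among the receptors seen in 25% or more of a library's cells. Con held 1.14 CPM, the Veh libraries 5.98, 5.29 and 3.98 CPM, and those of DHA 17.2, 15.7 and 7.03 CPM. Every DHA library was above its Veh library of the same hour, and Con was lowest of all. A UMI was found in 4.16% of Con cells, in 18.1%, 12.3% and 12.1% of Veh cells and in 38.3%, 31.9% and 15.3% of DHA cells. After thinning, the Con share was 1.82%, the Veh shares 9.59%, 8.43% and 6.45%, and the DHA shares 22.1%, 20.0% and 10.4%. Its near paralog Mgl2, with which reads could be shared or lost, stood at 4.78 CPM for Con, 16.8, 14.8 and 12 CPM for Veh, and 18.5, 18.4 and 9.43 CPM for DHA.

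Cd300a (ENSMUSG00000034652, chr11:114889152-114901946) stood at 33.9 CPM for Con, 46.0, 39.5 and 27.0 CPM for Veh, and 100.3, 96.0 and 98.4 CPM for DHA. The 3 DHA libraries had overlapping intervals and stood apart from the other 4, which did not overlap each other. A UMI was found in 70.2% of Con cells, in 78.4%, 65.7% and 64.4% of Veh cells and in 95.3%, 93.8% and 89.3% of DHA cells. Thinned, the shares were 47.4%, then 58.6%, 52.7% and 36.4% in Veh, and 78.4%, 79.5% and 80.1% in DHA. Cd300a belongs to a family of similar neighbouring genes, whose reads could be split in counting.

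The first question was what DHA did before LPS, and the comparison is DHA.LPS.0 against Veh.LPS.0. A gene is counted as past the limit when its CPM ratio is over 1.5 or under the inverse of 1.5 and a UMI is present in 25% or more of the cells of the first or the second library. Of the 5 receptors that met the share limit, Clec10a and Cd300a were higher past the limit and none was lower. Of all 8434 genes that met it, 1.08% were higher and 0.949% lower. Clec10a was 2.87 times as high in DHA.LPS.0 (interval 2.56 to 3.22), at rank 7 of 8434 from the top, and Cd300a 2.18 times (2.08 to 2.28), at rank 19. Clec10a met the share limit only through DHA.LPS.0, where it was high, with a UMI in 38.3% of cells against 18.1%. Its place among the receptors counted and its rank therefore lean on that limit.

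The other receptors at 0 h stayed within the limit or were scarce. Adgre1 was 1.46 times as high with DHA (1.39 to 1.54), just short of the limit, at rank 113 of 8434. Itgam, at 0.87 times (0.85 to 0.90), and Msr1, at 0.90 times (0.86 to 0.93), were lower by little, and over all deposited barcodes both log2 ratios turned positive, from -0.20 to 0.16 for Itgam and from -0.16 to 0.12 for Msr1. Itgax was 7.75 times as high (3.32 to 20.1), but its 22 UMIs in DHA.LPS.0 lay in 6 cells, 8 of them in 1 cell, and the log2 ratio of 2.95 was 0.83 after thinning and 0.90 over all barcodes, where the 2 libraries held 31 and 29 UMIs. Mrc1, at 0.61 times (0.31 to 1.09), had an interval that included 1. The median log2 ratio of the 5 receptors counted was 0.55, and that of all genes counted was -0.05. The median of the 5 includes Clec10a, counted only through DHA.LPS.0, so it leans on the share limit too.

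One hour after LPS, DHA.LPS.1 against Veh.LPS.1 gave the same 2 receptors past the limit out of 5 counted. Of all 7794 genes counted, 1.33% were higher and 1.73% lower with DHA. Clec10a was 2.97 times as high (2.61 to 3.36, rank 5 of 7794) and Cd300a 2.43 times (2.31 to 2.55, rank 12). Clec10a was again counted only through the DHA library, with a UMI in 31.9% of cells against 12.3%. Adgre1 was 1.43 times as high (1.35 to 1.52), Itgam 0.89 times and Msr1 0.95 times, and over all deposited barcodes the log2 ratios of the last pair again turned positive, from -0.17 to 0.11 and from -0.081 to 0.31. Itgax was 2.36 times as high (1.37 to 4.03), from 27 and 34 UMIs. The median log2 ratio was 0.52 over the receptors counted and -0.05 over all genes. The median of the receptors again includes Clec10a and leans on the share limit.

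After 4 h of LPS, Cd300a was the only one of 4 receptors counted that was past the limit. It was 3.64 times as high in DHA.LPS.4 as in Veh.LPS.4 (3.41 to 3.88), at rank 3 of 7672, where 2.22% of genes were higher and 2.42% lower. Clec10a was 1.77 times as high (1.43 to 2.18), but with a UMI in 15.3% and 12.1% of cells it fell under the share limit. Adgre1 was now 0.87 times as high (0.81 to 0.94), and over all deposited barcodes its log2 ratio was 0.12 in place of -0.20. Itgax was 0.43 times as high (0.30 to 0.60), Msr1 1.16 times (1.12 to 1.21) and Mrc1 1.24 times (0.81 to 1.87). The median log2 ratio was 0.01 over the 4 receptors counted and 0.08 over all genes. These 4 leave out Clec10a, with a log2 ratio of 0.82. It was among the 5 counted at 0 and 1 h, so the medians of the receptors are not of like sets.

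**Figure D2:**
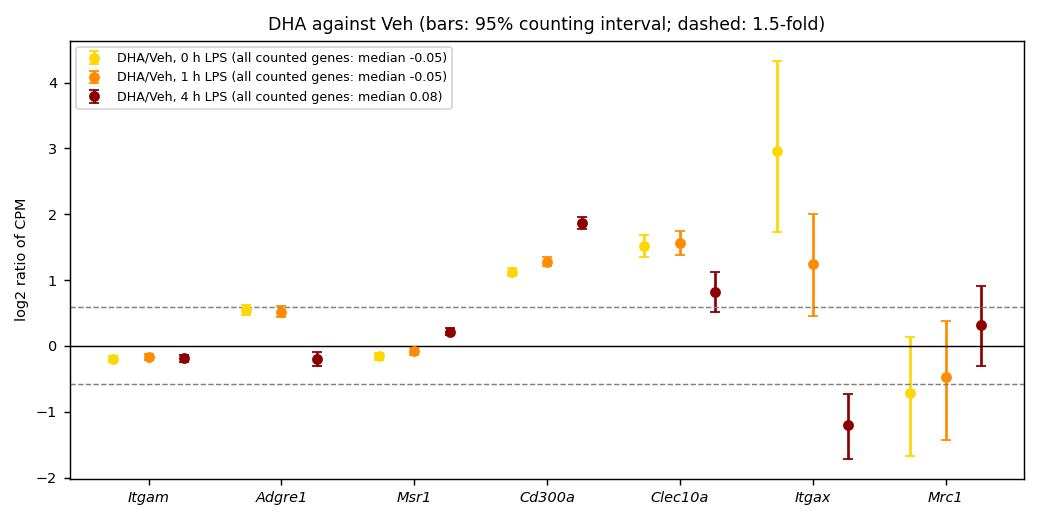
Log2 ratio of CPM, DHA over Veh, for the 7 receptors with more than 3 UMIs in every library at 0, 1 and 4 h of LPS; bars are exact binomial 95% counting intervals, and dashed lines mark 1.5-fold. Cd300a runs from 1.12 at 0 h to 1.86 at 4 h, Clec10a lies above the upper line at all 3 hours, and Itgax and Adgre1 lie above 0 at 0 and 1 h and below it at 4 h.

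Set side by side over the hours, the DHA ratios of Cd300a and Clec10a moved apart. On the log2 scale the Cd300a ratio at 4 h exceeded that at 0 h by 0.74 (95% counting interval 0.63 to 0.85), and the Clec10a ratio differed by -0.70 (-1.04 to -0.36). At 1 h the Clec10a ratio was 0.05 above that at 0 h (-0.20 to 0.29). For Adgre1 the difference between 4 h and 0 h was -0.74 (-0.87 to -0.62) and for Itgam 0.01 (-0.06 to 0.08). Each of these rests on 4 libraries, and the spread between libraries of 1 condition was not measured.

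Over all deposited barcodes, including those left out for their mitochondrial share, the DHA log2 ratios of Cd300a were 1.35, 1.61 and 2.1 at 0, 1 and 4 h, against 1.12, 1.28 and 1.86 in the kept cells. For Clec10a they were 1.72, 1.71 and 1.10 against 1.52, 1.57 and 0.82. Both receptors were thus at least as far above Veh without the cell limits. The sets of all barcodes are themselves unlike. A mitochondrial share of 20% or more was found in 76.4%, 74.4% and 80.0% of DHA barcodes and in 37.8%, 35.8% and 54.7% of Veh barcodes. Treatment and the make-up of the barcodes cannot be told apart here either. Adgre1 had 0.78, 0.78 and 0.12 over all barcodes against 0.55, 0.52 and -0.20. Itgam had 0.16, 0.11 and 0.14 against -0.20, -0.17 and -0.19, and Msr1 0.12, 0.31 and 0.55 against -0.16, -0.081 and 0.22, so the side of 1 on which both lay at 0 and 1 h, and Itgam at 4 h, depended on the cell limits. For Itgax the values were 0.90, 0.51 and -0.78 against 2.95, 1.24 and -1.21, and for Mrc1 -0.12, -0.41 and 0.79 against -0.72, -0.48 and 0.31. Over all barcodes the median log2 ratio of all genes was -0.25, -0.31 and -0.18.

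Single cells were compared at equal depth. Of DHA.LPS.0 cells thinned to 20000 UMIs, 26.4% held 3 to 5 Cd300a UMIs and 21.6% held none, against 7.82% and 41.4% of Veh.LPS.0 cells. At 4 h, 28.6% of DHA cells held 3 to 5 and 19.9% none, against 2.92% and 63.6% of Veh cells. Cells without a Cd300a UMI were fewer with DHA at both hours, and cells with more than 2 were more common. The Fano factor of Cd300a (variance over mean, 1 for Poisson counts) was 1.18 to 1.75 over the 7 libraries.

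The Fano factor of Clec10a was 1.13 to 3.19 over the 7 libraries, highest in DHA.LPS.0 and lowest in Veh.LPS.0. Before thinning, 1 cell held 45 of the 602 Clec10a UMIs of DHA.LPS.0 and 1 cell 41 of the 499 of DHA.LPS.1. Without that cell the levels were 15.9 and 14.5 CPM, still above the 5.91 and 5.21 CPM of the Veh libraries of the same hours without theirs. In the thinned cells of DHA.LPS.0, 15.5% held 1 Clec10a UMI and 4.87% held 2, against 8.59% and 0.887% in Veh.LPS.0.

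**Figure D3:**
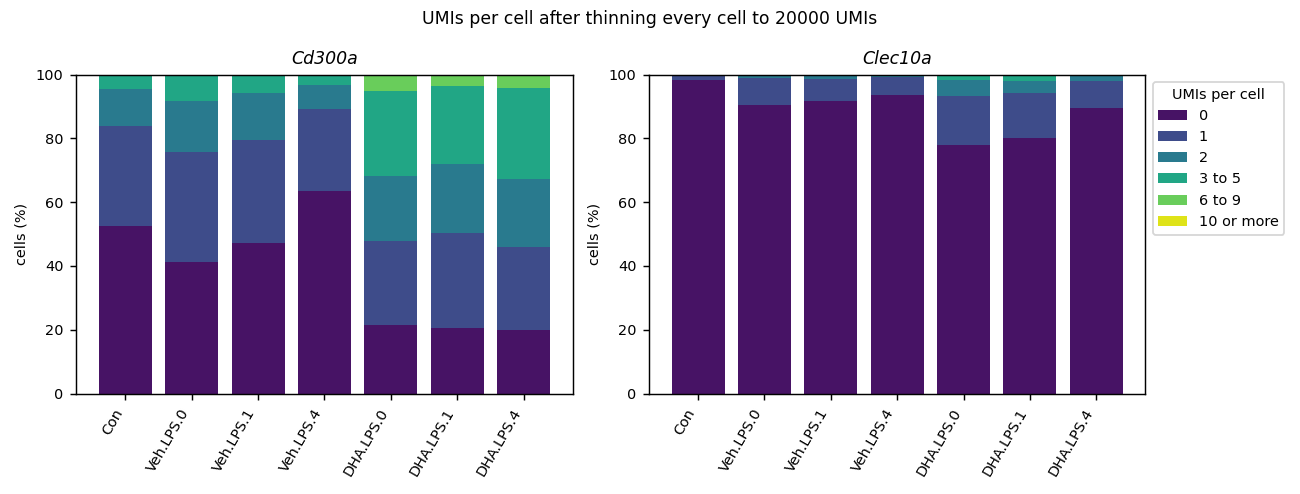
Percent of cells (0 to 100) with 0, 1, 2, 3 to 5, 6 to 9 or 10 or more UMIs of Cd300a and of Clec10a in each library, every cell thinned to 20000 UMIs. The share of cells without Cd300a is 19.9% to 21.6% in the DHA libraries and 41.4% to 63.6% in the others, and most cells of every library hold no Clec10a UMI.

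Between the 5 receptors seen in 25% or more of a library's cells, levels hardly went together from cell to cell. Over their 10 pairs in 7 libraries, Spearman's rho in thinned cells ran from -0.089 to 0.156, with a median of 0.039, as a description of cells that share a library and a depth. Itgam and Msr1 had the highest values, 0.098 to 0.156. In sparse counts such values carry little.

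The number of cells with few UMIs of 8 proliferation genes (Mki67, Top2a, Ccnb1, Ccnb2, Cdk1, Birc5, Ube2c and Tpx2) differed between the libraries and moved with DHA. Cells with at most 27 such UMIs at equal depth, the median of Veh.LPS.0, accounted for 35.5% of Con cells, 50.6%, 52.1% and 89.2% of Veh cells, and 65.8%, 67.8% and 79.2% of DHA cells. In such cells Cd300a was higher than in the others in every library, as at 114.7 against 75.9 CPM in DHA.LPS.0 and 53.8 against 39.1 CPM in Veh.LPS.0. Itgam, Adgre1 and Clec10a were also higher in cells with few proliferation UMIs in all 7 libraries, and Msr1 in 6, with 152.7 against 176.4 CPM in Con. The share of all genes that were higher in such cells was not counted. This pattern can therefore not be called particular to the receptors. Among cells with few proliferation UMIs alone, the DHA log2 ratios were 1.09, 1.20 and 1.83 for Cd300a, 1.64, 1.5 and 0.87 for Clec10a and 0.43, 0.42 and -0.10 for Adgre1.

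**Figure D4:**
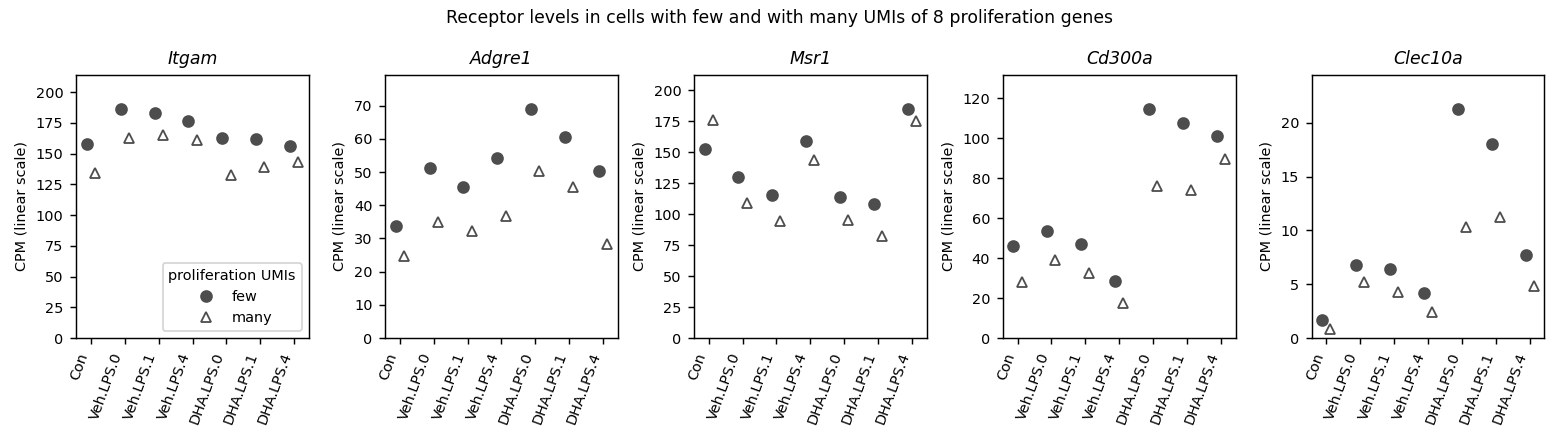
CPM (linear axes from 0) of 5 receptors in cells with few (filled circles, at most 27 at equal depth) and with many (open triangles) UMIs of 8 proliferation genes, in each library. The circle lies above the triangle in every library for Itgam, Adgre1, Cd300a and Clec10a, and in all libraries but Con for Msr1. The share of all genes on that side was not counted. In both sets of cells Cd300a is higher in each DHA library than in Con and Veh.

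The next comparisons asked what LPS did in each treatment. At 1 h, no receptor of 4 counted in Veh and none of 5 in DHA was past the limit. Of 8089 genes in Veh, 4.15% were higher and 4.24% lower, and of 8474 in DHA, 4.66% and 4.97%. The ratios of the receptors counted were 0.86 to 1.00 in Veh and 0.89 to 1.02 in DHA, and their median log2 ratios were -0.16 and -0.11, beside -0.10 and -0.12 over all genes. Itgax, under the share limit, was 4.44 times as high in Veh.LPS.1 as in Veh.LPS.0 (2.02 to 11.1) on 34 and 8 UMIs, and 1.35 times (0.74 to 2.49) in DHA.

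At 4 h in Veh, Cd300a was the 1 receptor of 4 counted past the limit, at 0.59 times its level in Veh.LPS.0 (0.55 to 0.62). Of 8385 genes, 10.2% were higher and 38.3% lower, so a lower level was common, and Cd300a had rank 2525 from the bottom. With the TMM factors of edgeR in place of library totals the median log2 ratio of all genes was 0.07 in place of -0.36, and 1813 genes were higher and 1769 lower. Under that scaling Cd300a had a log2 ratio of -0.34 in place of -0.77 and was within the limit, while Msr1 and Adgre1, at 1.32 times (1.29 to 1.36) and 1.22 times (1.17 to 1.28) by library totals, were past it.

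Itgax had the highest ratio of any receptor. It was 54.4 times as high in Veh.LPS.4 as in Veh.LPS.0 (27.2 to 127), though on 8 UMIs in the latter, and over all barcodes, with 403 and 29 UMIs, the log2 ratio was 4.38 in place of 5.76. Mrc1 was 2.0 times as high (1.42 to 2.82), Clec10a 0.66 times (0.57 to 0.77) and Itgam 1.01 times (0.98 to 1.03). With TMM factors the log2 ratio of Itgam was 0.44 in place of 0.01, so its level was unchanged by library totals only.

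At 4 h in DHA, Msr1 was higher past the limit, 1.71 times (1.64 to 1.79, rank 567 of 8477), and Clec10a lower, 0.41 times (0.34 to 0.49), of 5 receptors counted. Clec10a was counted only through DHA.LPS.0, with a UMI in 38.3% of cells against 15.3% in DHA.LPS.4. Of the 8477 genes, 9.64% were higher and 33.6% lower. Cd300a was 0.98 times as high as in DHA.LPS.0 (0.93 to 1.04) and Itgam 1.01 times (0.97 to 1.06). Adgre1 was 0.73 times as high (0.68 to 0.79), on the other side of 1 from its ratio in Veh. Itgax was 3.03 times as high (1.77 to 5.34) and Mrc1 4.09 times (2.15 to 8.20), from 42 and 36 UMIs at 4 h. The median log2 ratio of the receptors counted was 0.15 in Veh, over 4 receptors, and -0.03 in DHA, over 5 with Clec10a added. Over all genes it was -0.36 and -0.29. With TMM factors the median of all genes in DHA was 0.01, with 1551 genes higher and 1779 lower. Under that scaling the log2 ratios of Itgam and Cd300a in DHA were 0.32 and 0.27, in place of 0.02 and -0.03. That of Adgre1 was -0.15 in place of -0.45.

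**Figure D5:**
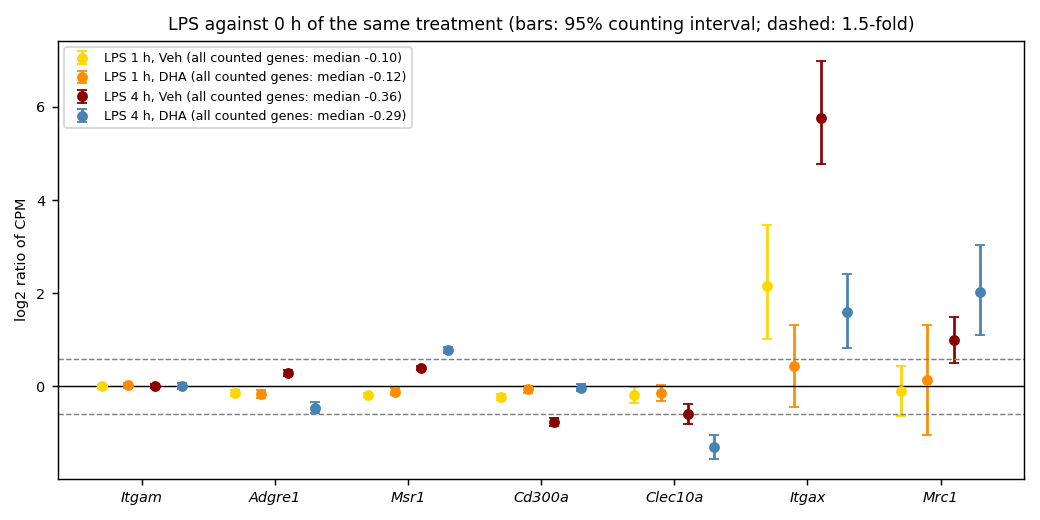
Log2 ratio of CPM after 1 or 4 h of LPS over 0 h of the same treatment, for 7 receptors; bars are exact binomial 95% counting intervals and dashed lines mark 1.5-fold. By library totals, Itgam lies near 0 in all 4 comparisons, and Cd300a is below the lower line at 4 h in Veh and at -0.03 in DHA. Adgre1 is above 0 in Veh and below it in DHA at 4 h, and Itgax at 4 h in Veh is 5.76.

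The last comparison, Veh.LPS.0 against Con, set 24 h in reduced serum with BSA beside growth in 10% FBS. Adgre1 was past the limit, 1.54 times as high (1.47 to 1.61), the 1 of 4 receptors counted, where 9.31% of 8252 genes were higher and 7.76% lower. Thinning the cells or scaling by TMM factors put Adgre1 within the limit, at log2 ratios of 0.56 and 0.58 in place of 0.63. Clec10a was 5.26 times as high (4.38 to 6.36), with a UMI in 18.1% and 4.16% of cells and so under the share limit. Cd300a was 1.36 times as high, Itgam 1.23 times and Msr1 0.70 times (0.69 to 0.72). The median log2 ratio was 0.37 over the receptors counted and -0.07 over all genes.

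Related receptors give the setting for these values. Of 15 siglecs, CD300 and paired receptor genes measured, 8 were counted at 0 h of DHA, 8 at 1 h and 9 at 4 h, and 0, 1 and 0 of them were past the limit. Of all genes counted at these hours, 1.08%, 1.33% and 2.22% were higher and 0.949%, 1.73% and 2.42% lower. Counts this small therefore say little about the list. Its 1 gene past the limit at 1 h was Cd300c2, a relative of Cd300a, with 28.2 and 42.7 CPM in Veh.LPS.1 and DHA.LPS.1. It was 1.37 times as high with DHA at 0 h (46.1 against 33.7 CPM) and 1.42 times at 4 h (45.8 against 32.3 CPM). Cd300lf, an inhibitory relative, was 1.13 times as high with DHA at 0 h and 1.35 times at 4 h. The siglec Cd33 stood at 20.3 CPM for Con, 24.5, 22.0 and 33.7 CPM for Veh, and 27.1, 25.2 and 44.6 CPM for DHA. After 4 h of LPS in Veh, 3 of 9 members of that list were higher and 2 lower, where 10.2% of all genes were higher and 38.3% lower. Pilra was 8.88 times as high (7.47 to 10.6) and Cd300lf 0.53 times (0.49 to 0.57). Pilra was counted only through Veh.LPS.4, where it was high, with a UMI in 26.0% of cells against 5.08% in Veh.LPS.0.

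Of 16 further C-type lectin genes, 7 were counted at 4 h of LPS in Veh, and 5 were higher and 1 lower, beside the 10.2% and 38.3% of all genes given above. Among those higher, Clec2d met the share limit only through Veh.LPS.4 (a UMI in 28.0% of cells against 8.63%). Clec4a3, the 1 lower, met it only through Veh.LPS.0 (35.9% against 19.2%). Clec4e, the receptor Mincle for damaged cells and mycobacterial lipid, stood at 122 CPM for Con, 166, 617 and 1211 CPM for Veh, and 231, 660 and 1751 CPM for DHA. Its DHA ratios of 1.39 at 0 h and 1.45 at 4 h were within the limit. None of the 7 counted at 0 h was past the limit with DHA, where 1.08% of all genes were higher and 0.949% lower. At 4 h, 6 were counted and 2 of them were lower with DHA, where 2.42% of all genes were lower. Clec12a, an inhibitory lectin, was 0.50 times as high with DHA (0.45 to 0.54) and Clec2d 0.40 times (0.30 to 0.52). Both lay on the other side of 1 from Clec10a. Clec2d was counted only through Veh.LPS.4, where it was high, with a UMI in 28.0% of cells against 8.09% in DHA.LPS.4.

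Of 12 further scavenger receptor genes, 5 were counted in each DHA comparison. Past the limit, 1, 2 and 2 of them were higher at 0, 1 and 4 h, and none was lower. Of all genes counted, 1.08%, 1.33% and 2.22% were higher with DHA at 0, 1 and 4 h. Cd36, which takes up fatty acids and oxidised lipoproteins, stood at 27.3, 27.5 and 42.5 CPM for Veh and at 51.6, 53.0 and 58.1 CPM for DHA, and was past the limit at 0 h (1.89 times, 1.78 to 2.01) and at 1 h, but not at 4 h (1.37 times). Scarb2, a lysosomal membrane protein, was 1.47 times as high with DHA at 0 h and 1.69 times (1.54 to 1.86) at 4 h, and Colec12 1.51 times (1.45 to 1.56) at 4 h. Scarb1 and Cxcl16 were lower with DHA at each hour, within the limit. Scarb1 held 58.2, 44.0 and 21.0 CPM for Veh and 46.5, 36.3 and 16.1 CPM for DHA. Cxcl16 held 10.4, 12.3 and 53.9 CPM for Veh and 8.5, 9.6 and 44.5 CPM for DHA. Of 14 signalling genes downstream of lectin and inhibitory receptors, 13 were counted. With DHA 1 of them was lower past the limit at 0 h (Fgr, a Src family kinase, 0.64 times, 0.57 to 0.71) and none at 1 or 4 h. Of all genes, 0.949%, 1.73% and 2.42% were lower at 0, 1 and 4 h. Ptpn6 and Inpp5d, phosphatases used by inhibitory receptors such as Cd300a, were among the 3 lower after 4 h of LPS in both treatments, with Card9. A lower level was common there, at 38.3% of all genes in Veh and 33.6% in DHA. The median log2 ratio of the signalling list with DHA was -0.14 at 0 h and 0.07 at 4 h, beside -0.05 and 0.08 over all genes.

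The genes most like each receptor over the 7 libraries, by Pearson's r of log2(CPM + 1) among 8766 genes, are given as a description of 7 points that share their libraries. For Cd300a they were Sirt6 (r = 0.98) and Lamp1 (0.98), a lysosomal membrane protein with 452 CPM for Con, 494, 459 and 434 CPM for Veh, and 609.9, 566 and 559 CPM for DHA. For Clec10a they were Igf2r (0.99), which carries enzymes to lysosomes, and Anxa4 (0.99). Adgre1 was most like Cd200r1 (0.99) and H2-T23 (0.97), Msr1 like Slc4a2 (0.99) and Tirap (0.98), Itgam like Aacs (0.96) and Clcn6 (0.95), Mrc1 like Tgs1 and Slc25a25 (both 0.98), and Itgax like Cers6 (0.99). Among the receptors themselves, r was 0.88 for Clec10a and Adgre1, 0.81 for Clec10a and Cd300a, and 0.78 for Mrc1 and Msr1.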

How the data were processed

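The 7 libraries of 10x 3' single cell RNA were used as deposited, and per the labels each was 1 condition. The authors deposited raw UMI counts per gene and barcode, made with Cell Ranger 3.1.0 (file headers and the submitters' processing notes) on build mm10, before their cell filter and normalisation. The authors' SCTransform values were not used here. Gene positions come from RefSeq on GRCm38.p6, and no receptor sequence was used here.

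The cell limits and CPM were set by the rule for the members, and the 1.5-fold limit with the 25% share is that of some of the study's comparisons. Counts of kept cells were summed per library and divided by its total, with pandas 2.3.3 and numpy 2.4.6. Levels have exact Poisson intervals, ratios and shares exact binomial ones (scipy 1.17.1, 95%), and differences of log2 ratios normal-approximation ones. No doublet caller was run. Instead, 1 of the 12 alternative settings left out the 5% of cells with the most UMIs. Others used TMM factors (edgeR 4.0.16), median-of-ratios size factors (DESeq2 1.42.0), thinned cells, other cell limits or other share limits. Neither package tested any gene. An alternative without the cell richest in a member was added after seeing the data. On simulated Poisson counts of well-counted genes, nearly all genes given a large known ratio came out past the 1.5-fold limit. Genes as sparse as Itgax and Mrc1 were not covered.

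Members and the 17 gene lists were chosen with earlier results of these data known. All members are named. Markers of other cell types are given by their ranges, with Id3, Slc40a1, Cx3cr1 and Ccr2 chosen after their values were seen. Of the other lists, up to 3 genes with the largest log2 ratio at 4 h of LPS in Veh and at 0 and 4 h of DHA are named, and Mgl2, Cd33, Itgal, Itgad, Card9 and Ptpn6 were chosen after their values were seen. One list symbol, Cd300lh, had no row. The second gene most like Itgax is not reported here. Labels give no sequencing batch.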

Additional observations from a re-analysis of the deposited data

Results flagged for a closer look

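The DHA ratio of Itgax changed side between hours, with log2 ratios of 2.95 at 0 h, 1.24 at 1 h and -1.21 at 4 h of LPS. The DHA ratio of Msr1 did so within a narrow range, at -0.16, -0.081 and 0.22. That of Adgre1 was 0.55, 0.52 and -0.20. Over all deposited barcodes Msr1, at 0.12, 0.31 and 0.55, and Adgre1, at 0.78, 0.78 and 0.12, lay on 1 side of 0 at every hour, while Itgax, at 0.90, 0.51 and -0.78, still changed side. Adgre1 also had opposite directions after 4 h of LPS, with log2 ratios of 0.29 in Veh and -0.45 in DHA by library totals. With TMM factors these ratios were 0.72 and -0.15, and among cells with few proliferation UMIs 0.08 and -0.46. The size of each side thus depended on the scaling or the cells taken. With 1 library per condition these differences were not tested beyond counting error. Both Adgre1 patterns use the same 4 libraries.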

How the results depend on the processing

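No paired analysis was possible because there was 1 library per condition. Of 96 recomputed counts of receptors past the limit, 79 stayed within 1.5 times and 17 did not, and of 616 recomputed member ratios 96 moved beyond their counting interval and none called past the limit changed sign. Without a limit on the share of cells the counts were 3 for reduced serum, 1 for LPS at 1 h in Veh and 4 at 4 h in Veh. They were 4 for LPS at 4 h in DHA, 4 for DHA at 0 h and 3 at 4 h. The receptors added were Itgax, Mrc1 or Clec10a. Many other genes were past the limit at that setting too. Of all genes, 2419 were higher and 1122 lower for reduced serum. For LPS in Veh the split was 1159 and 1628 at 1 h, and 1502 and 5758 at 4 h. These counts therefore say little about the receptors. With thinned cells the counts of receptors were 0 for reduced serum, where Adgre1 came within the limit, and 1 each for LPS at 4 h in DHA and for DHA at 0 h and 1 h. In those 3 comparisons fewer than 25% of thinned cells hold a Clec10a UMI. With a UMI required in 50% of cells, the same 3 comparisons, LPS at 4 h in DHA and DHA at 0 h and 1 h, had 1 each by construction. TMM factors gave 0 for reduced serum and 2 (Msr1 and Adgre1) for LPS at 4 h in Veh, as did median-of-ratios size factors for the latter. All deposited barcodes gave 1 for LPS at 4 h in DHA, and for DHA at 0 h and 1 h they gave Cd300a and Adgre1 in place of Clec10a, whose share was then under 25%. Cd300a was past the limit in each DHA comparison under all alternatives run. TMM factors moved the split of all genes to 406 higher and 256 lower for LPS at 1 h in Veh, 502 and 283 in DHA, and 96 and 262 for DHA at 4 h, and median-of-ratios size factors to 107 and 61 for DHA at 0 h. Depth limits Itgax and Mrc1 most, with as few as 8 and 14 UMIs in a library.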
